A study of Homo sapiens with 12 samples.

Results

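Untreated PC9 cells were compared with untreated HCC827 cells, to describe which genes and gene programmes separate these lung adenocarcinoma lines before any EGFR inhibitor is given. The comparison used 6 of the 12 arrays of the series, 3 per line, chosen by their labels as the DMSO arrays. Both lines are established human lines, labelled as lung tissue and as EGFR-mutant non-small cell lung cancer. Per the labels, the untreated cells were plated in 10 cm dishes in RPMI with 10% FBS, and were kept for 8 days with DMSO, the solvent of the drug, renewed with the medium after 4 days. The series description gives flasks instead, so the vessel is uncertain, and neither source gives a difference between the lines. The other 6 arrays came from the same lines after 8 days with 2 micromolar of the EGFR kinase inhibitor erlotinib. For these, more cells were plated, in flasks in place of dishes. They served to set each line difference beside the same difference under drug. They also entered the choice of probe set, the filter and the shared estimate of spread behind every standard error and p-value. The labels do not tell if the 3 replicates of a line were grown separately, and every p-value therefore measures only the spread between these samples, which may be technical.

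PC9 and HCC827 both carry activating deletions in the kinase domain of EGFR, a receptor that drives growth through the RAS, ERK and PI3K pathways, and both are widely used to study EGFR inhibitors. Lines with the same driver can differ in the cell lineage they keep, in basal inflammatory and interferon signalling, and in the NRF2 programme, in which the transcription factor NRF2 switches on enzymes that detoxify aldehydes and oxidants. Interferon signalling acts through the ISGF3 complex, which binds the interferon-stimulated response element (ISRE), whereas NRF2 binds the antioxidant response element (ARE).

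Messenger RNA was measured on one-colour Affymetrix expression arrays, and each value is a MAS5 signal, a linear brightness for 1 probe set scaled so that every array has a 2% trimmed mean of 150. The table gives no detection calls, and its median signal of 13 was taken as the level of background. A signal is given for each of the 3 arrays or as mean ± SD (n = 3). Differences are PC9 minus HCC827 on the log2(signal + 8) scale with their standard error, so a positive value is higher in PC9, and the constant of 8 understates differences of genes near background. Adjusted p-values are those of limma with Benjamini-Hochberg correction over all 13185 genes tested, of 19775 genes on probe sets with 1 gene symbol. The other 6590 genes stayed below the median of the table in all 4 groups. A gene was called at an adjusted p under 0.05. Signals of different genes come from different probe sets and are not compared with each other.

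The labels were checked against markers of epithelial and of other cells. All 6 epithelial markers (EPCAM, CDH1, KRT7, KRT8, KRT18 and KRT19) were bright in both lines, with summed signals of 15094 to 16446 in PC9 and 14066 to 14439 in HCC827. The 6 lung lineage markers were mixed. NKX2-1 (10.2 to 20.5 in PC9, 1923 to 2210 in HCC827) and NAPSA (3.5 to 4.6 against 234 to 270) were higher in HCC827. The surfactant genes SFTPB and SFTPC read between 7.6 and 32.3 on all 6 arrays, and SCGB1A1 (18.8 to 31.4 against 0.6 to 5.3) and AGER (11.2 to 13.8 against 2.4 to 9.5) read higher in PC9, near background. The summed signal of the 6 markers, 97.2 to 115 in PC9 and 2199 to 2523 in HCC827, therefore rests mainly on the 1 probe set of NKX2-1. Leukocyte markers (PTPRC, CD3E and CD14) summed to 12.5 or less on every array and 5 fibroblast markers to 27.6 or less. The endothelial adhesion genes PECAM1 and CDH5 read 879, 783 and 844 and 106, 111 and 97.8 in PC9 against 7.4, 5.7 and 5 and 2, 0.9 and 2 in HCC827, so the summed signal of 4 endothelial markers was 895 to 988 in PC9 and 12.2 to 12.6 in HCC827. The other endothelial markers, VWF and KDR, read at most 5.3 on every array. Arrays of a line correlated over genes with r of 0.9929 to 0.9957 in PC9 and 0.9969 to 0.9973 in HCC827, and arrays of different lines with 0.8446 to 0.857. PC9 replicate 2 stood at least 4-fold above the other PC9 arrays for 5 genes (CLDN11, ENPP2, GJA1, MYLK and SPARC), which touches the mesenchymal genes below.

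Interferon response genes, higher in HCC827, and NRF2 target genes, mostly higher in PC9, are shown first by promoter sequence, since the binding elements of both programmes are short enough to be read directly. Promoters were taken from RefSeq on GRCh38.p14 as 300 bases, from 250 before to 50 after the start site, and searched on both strands for GAAA, any 2 bases and GAAA again (an ISRE core) and TGACNNNGC (an ARE core), with matches of the same motif allowed to overlap. The ISRE letters were in 15 of 22 interferon response genes with a promoter in the table (68.2%), against 3.65% of all 27305 promoters and 2.73% of 10689 promoters of tested genes. Of the genes called at 2-fold or more, 6.06% of those higher in HCC827 and 1.88% of those higher in PC9 held them. The ARE letters were in 7 of 19 NRF2 genes (36.8%), against 13.6% of all promoters and 15.3% of those of tested genes, and in 13.7% and 14.5% of the genes called at 2-fold or more higher in PC9 and in HCC827. A match describes the letters in this window and is not evidence of binding. Of the ARE promoters printed below, GPX2 (3.72), GSTP1 (0.76) and GCLM (0.76) were higher in PC9, the last 2 by less than 2-fold. Upstream ARE matches not printed lay in PGD (1.75) and in GSTA4, which was higher in HCC827 (-0.35). GSTP1 and GCLM were named after their values were seen. The following stretches upstream of the start site, written 5′ to 3′ on the strand of the gene with every match in capitals, include members with the largest differences (IFI44, IFI27, OAS3 and IFIT1), a pair with overlapping repeats (ISG15 and BST2), and an ARE-bearing glutathione peroxidase, glutathione transferase and glutathione-synthesis subunit (GPX2, GSTP1 and GCLM).
IFI44, chr1:78649726-78649788, plus strand: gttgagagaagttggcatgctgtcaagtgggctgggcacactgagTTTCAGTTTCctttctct
IFI27, chr14:94110583-94110695, plus strand: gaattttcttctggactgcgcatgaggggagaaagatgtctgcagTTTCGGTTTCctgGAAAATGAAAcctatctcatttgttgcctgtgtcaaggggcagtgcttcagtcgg
OAS3, chr12:112938286-112938473, plus strand: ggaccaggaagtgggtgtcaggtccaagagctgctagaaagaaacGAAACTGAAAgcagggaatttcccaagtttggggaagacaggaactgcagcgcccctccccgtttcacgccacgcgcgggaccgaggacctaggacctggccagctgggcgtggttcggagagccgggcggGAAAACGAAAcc
IFIT1, chr10:89392462-89392574, plus strand: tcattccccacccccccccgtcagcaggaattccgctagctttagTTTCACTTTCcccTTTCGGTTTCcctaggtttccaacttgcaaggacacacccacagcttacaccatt
ISG15, chr1:1013339-1013444, plus strand: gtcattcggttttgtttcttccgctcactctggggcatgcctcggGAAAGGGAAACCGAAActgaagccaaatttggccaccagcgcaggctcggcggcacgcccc
BST2, chr19:17405700-17405805, minus strand: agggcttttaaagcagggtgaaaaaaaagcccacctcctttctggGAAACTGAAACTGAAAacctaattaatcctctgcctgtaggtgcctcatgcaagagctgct
GPX2, chr14:64942814-64942912, minus strand: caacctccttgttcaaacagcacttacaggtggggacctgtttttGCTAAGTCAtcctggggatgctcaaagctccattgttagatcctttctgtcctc
GSTP1, chr11:67583701-67583799, plus strand: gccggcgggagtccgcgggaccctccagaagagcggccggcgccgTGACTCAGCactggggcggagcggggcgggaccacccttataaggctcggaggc
GCLM, chr1:93909431-93909509, minus strand: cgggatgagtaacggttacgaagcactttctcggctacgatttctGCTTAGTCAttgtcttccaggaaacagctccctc

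Of the 13185 genes, 10042 (76.2%) were called, 4848 higher in PC9 (36.8%) and 5194 higher in HCC827 (39.4%). At 2-fold or more 3102 were called (23.5%), 1391 higher in PC9 (10.5%) and 1711 higher in HCC827 (13%). The arrays of the lines did not overlap for 10356 genes (78.5%). These shares are the background against which every gene list below is read. Large differences were split about evenly: at least 4-fold for 497 genes higher in PC9 and 578 higher in HCC827, at least 16-fold for 131 and 129, and at least 64-fold for 35 and 23. The median difference over all genes was -0.021, so that a list with a median near 0 was not shifted.

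**Figure D1:**
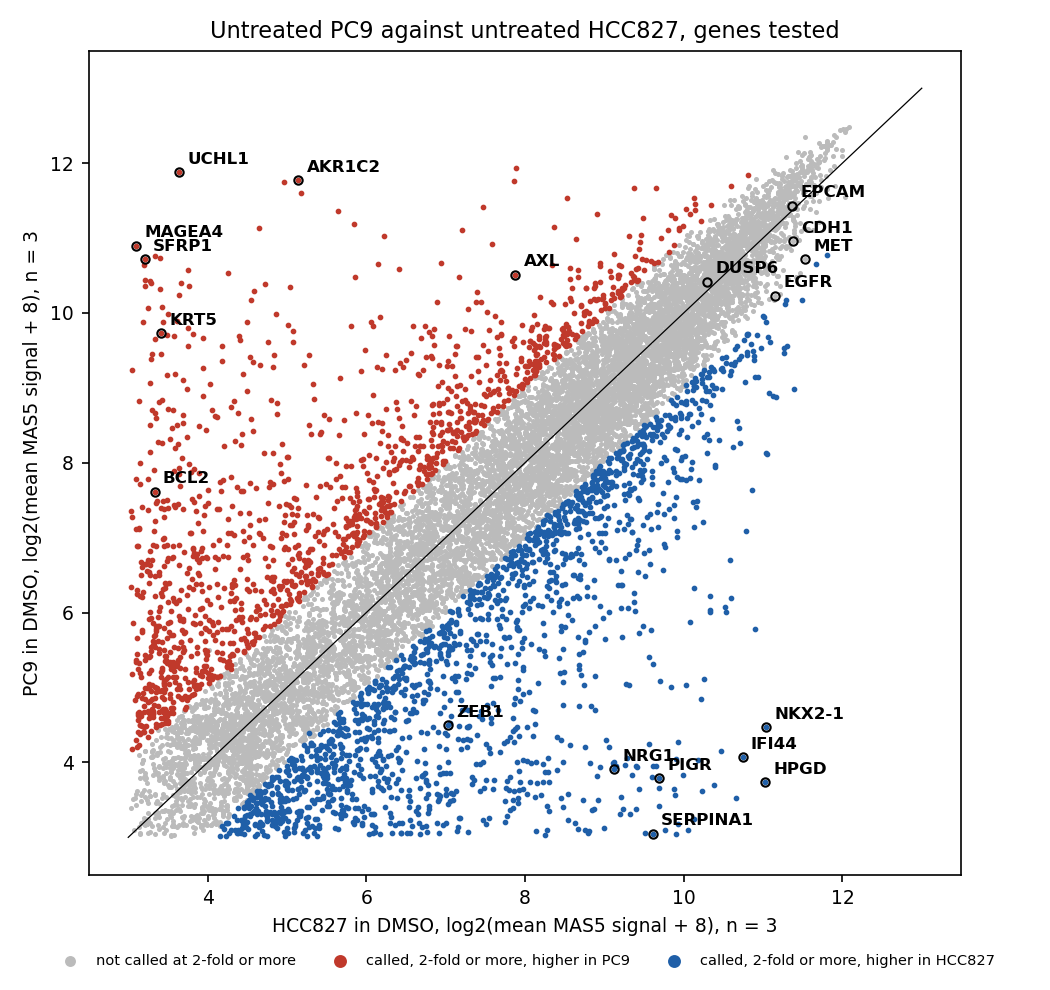
Mean signal of each tested gene in untreated PC9 (vertical axis) against untreated HCC827 (horizontal axis), both as log2(mean MAS5 signal + 8) with 3 arrays per line. Coloured points are the 1391 genes called at 2-fold or more higher in PC9 and the 1711 higher in HCC827, and UCHL1, MAGEA4 and SFRP1 lie at the left edge, near background in HCC827, while HPGD, NKX2-1 and IFI44 lie at the lower right, near background in PC9.

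The largest differences in favour of PC9 were of genes bright in PC9 and at background in HCC827. UCHL1, a ubiquitin hydrolase of neurons and neuroendocrine cells, read 3874, 3552 and 3836 in PC9 and 1.2, 6.2 and 6 in HCC827, a log2 difference of 8.26 ± 0.15 (adjusted p = 2.2e-17). MAGEA4, an antigen normally restricted to testis and tumours, read 1708, 2107 and 1881 against 0, 0.2 and 1.5 (7.80 ± 0.12). SFRP1, a secreted WNT antagonist, read 1684, 1648 and 1689.9 against 0.3, 3 and 0.4 (7.52 ± 0.11). On each of these genes the lowest PC9 array was far above the highest HCC827 array. The heparan sulfatase SULF2 had a signal of 1733 ± 79.5 in PC9 and 2.1 ± 1.57 in HCC827, and TIMP3, an inhibitor of metalloproteinases, 1697 ± 77.3 and 2.6 ± 0.5. Prostacyclin synthase PTGIS stood at 1310.2 ± 66.9 in PC9 against 1.27 ± 0.751. The granule proteoglycan SRGN (7.23 ± 0.13), the apical transport protein MAL (7.17 ± 0.14), the cytochrome c oxidase subunit COX7B2 (7.11 ± 0.091) and TRBC1, the constant region of a T cell receptor chain (7.44 ± 0.12), completed the 10 largest. TRBC1 and SRGN are known mostly from blood cells, whose markers PTPRC and CD3E stood at 5.5 or less on all PC9 arrays.

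In favour of HCC827 the largest difference was that of HPGD, the dehydrogenase that inactivates prostaglandins, which read 2.9, 4.7 and 8.5 in PC9 and 2093, 2104 and 2055 in HCC827 (-7.31 ± 0.13, adjusted p = 2.14e-17). The membrane protein TM4SF18 read 0.2, 10.4 and 0.1 against 1561, 1619.5 and 1629.6 (-7.24 ± 0.21), and the RNA-binding protein BICC1 0.1, 1 and 0.5 against 1059, 1066 and 1040.2 (-6.96 ± 0.085). These 3 genes thus read 1040.2 or more on every HCC827 array and 10.4 or less on every PC9 array. CYB5B, a cytochrome b5 of the outer mitochondrial membrane, differed by -6.90 ± 0.13, with all 3 of its other tested probe sets called the same way. The chromatin protein TOX3 differed by -6.86 ± 0.085, the neurexin relative CNTNAP2 by -6.76 ± 0.093 and the ciliary protein CFAP251 by -6.66 ± 0.16. C12orf75 had a signal of 0.6 ± 0.265 in PC9 and 864 ± 41 in HCC827. IFI16, an interferon-inducible sensor of DNA, and IFI44 were the remaining 2 of the 10 (-6.75 ± 0.18 and -6.69 ± 0.13). The 20 genes had adjusted p-values of 1.23e-14 or lower.

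All 28 type I interferon response genes tested were called higher in HCC827, and all 28 differed at least 2-fold (39.4% and 13% of all genes). Their median difference was -3.44, and the median signal of the list was 10.1 to 15 on the PC9 arrays and 262 to 289 on the HCC827 arrays. IFI44 read 5, 9.2 and 12.3 in PC9 and 1605, 1752 and 1754 in HCC827 (-6.69 ± 0.13, adjusted p = 3.71e-17). Its neighbour and relative IFI44L read 4.5, 8.3 and 5.9 against 979, 1008 and 1049 (-6.17 ± 0.13). IFI27, a membrane protein of mitochondria, read 6.5, 6.9 and 9 against 789, 788 and 804 (-5.70 ± 0.16). PC9 thus held these transcripts at or below the background of the table, and HCC827 well above it. In PC9 IFI44L and IFI27 also stayed below 13 in erlotinib (8.87 ± 1.80 and 6.63 ± 3.67), so they passed the filter only through HCC827. OAS3, a synthetase that activates RNase L, read 25.9, 24.8 and 23.5 against 969.6, 1073 and 1081 (-5.00 ± 0.089). The smallest difference in the list was that of IFI35 (-1.07), whose signals were 106, 83.4 and 101 in PC9 and 216, 210.3 and 207 in HCC827, and ISG15, a ubiquitin-like modifier whose promoter is shown above, was clearly read in PC9 as well (123, 105 and 99.5 against 856, 856 and 881, -2.90 ± 0.076). These 2 genes, and IFIT1 (-4.87 ± 0.13) and BST2 (-3.39 ± 0.16) among the printed promoters, were named after their values were seen. The sensors IFIH1 and RIGI and the factors IRF7 and IRF9, which carry the response forward, were all higher in HCC827 (-3.38, -2.39, -2.96 and -3.39, also named after their values were seen). In erlotinib the same 28 genes were again all called higher in HCC827, with a median of -2.19.

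**Figure D2:**
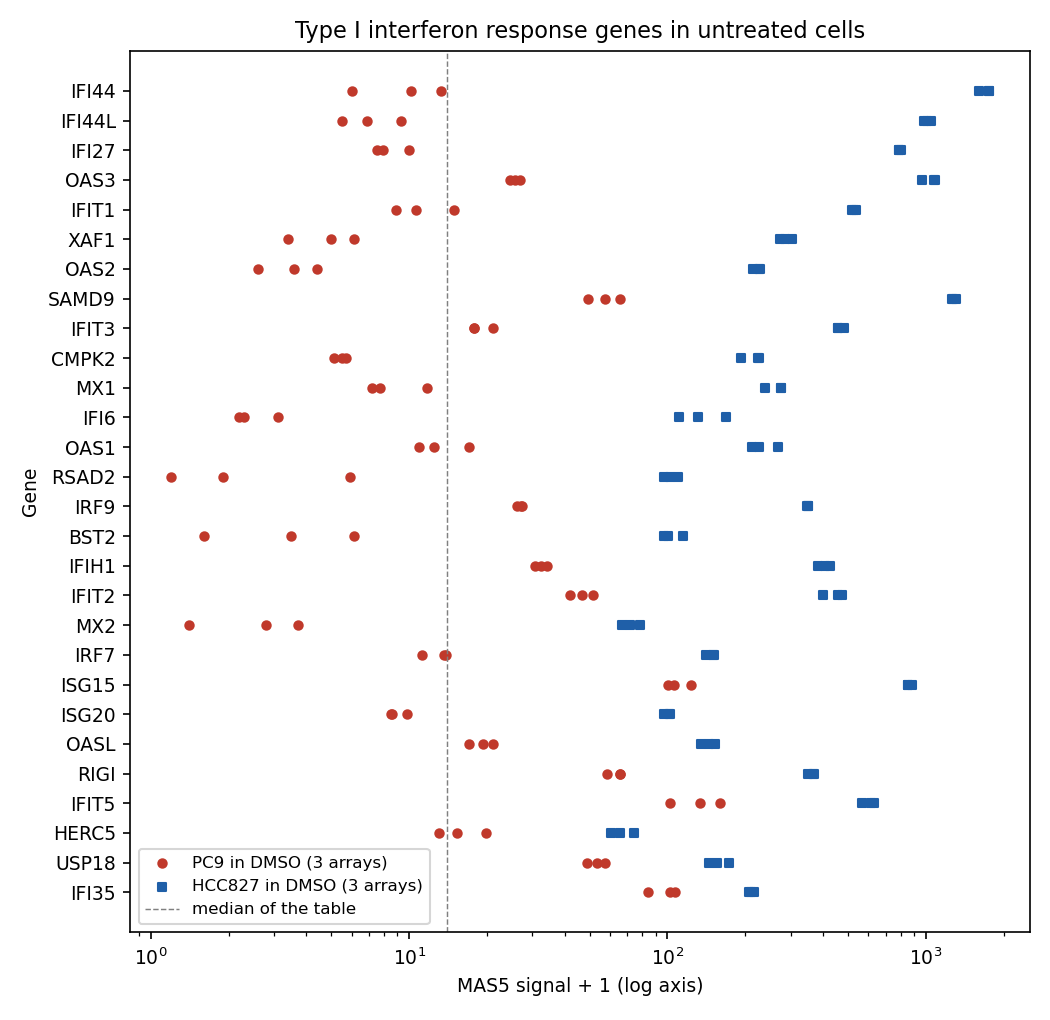
MAS5 signal plus 1 (log axis) of the 28 type I interferon response genes on each untreated array, with 3 circles for PC9 and 3 squares for HCC827 per gene and a dashed line at the median of the table. No gene has overlapping lines, IFI44 shows the widest gap and IFI35 the narrowest.

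Genes that present peptides to T cells followed the same side. Of 15 MHC class I and peptide-loading genes, 13 were higher in HCC827, 1 was higher in PC9 and 1 did not pass, and 11 of the 13 differed at least 2-fold (median -1.23). The immunoproteasome subunit PSMB9 read 15.8, 12.3 and 14.8 in PC9 and 255, 261 and 244 in HCC827 (-3.55 ± 0.083, adjusted p = 6.7e-16). HLA-C, a classical class I heavy chain, read 365, 364 and 381 against 1579, 1587 and 1700.4 (-2.11 ± 0.063), and the peptide transporter subunit TAP2 had a difference of -1.68 ± 0.088. The shared light chain B2M was bright in both lines (2661 ± 76.7 and 3076 ± 95.5, -0.21), and the trimming enzyme ERAP2 was the 1 member higher in PC9 (1.45), both named after their values were seen. HLA genes vary between people and resemble each other, so that probe sets may read alleles unequally or read several genes, and HLA-G (-2.26 ± 0.13) is uncertain for that reason. Of 12 MHC class II genes listed 6 were tested. All 6 were called higher in HCC827, 3 of them at least 2-fold, but at low signals. The invariant chain CD74 stood at 5.57 ± 2.15 in PC9 and 47.9 ± 10.9 in HCC827 (-2.04 ± 0.19), and HLA-DRA at 2.53 ± 1 and 13.9 ± 2.14. In PC9 both genes also stayed below 13 in erlotinib (8.13 ± 1.80 and 2.8 ± 1.91), so they passed the filter only through HCC827. The count and direction of this list therefore follow in part from the filter.

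Cytokine, chemokine and NF-kB target genes were higher in HCC827 in 19 of 24 cases, 12 of them at least 2-fold (39.4% and 13% of all genes). Of the others 3 were higher in PC9 and 2 did not pass (median -1.0). The median signal of the list was 6.85 to 12.6 on the PC9 arrays, below the filter level of 13, and 42.65 to 56.3 on the HCC827 arrays. Members that stayed below 13 in PC9 in erlotinib too, such as CXCL5 (3.27 ± 0.473), passed the filter only through HCC827. The neutrophil chemokine CXCL5 read 3.1, 2.9 and 2.2 in PC9 and 838, 746 and 860.0 in HCC827 (-6.26 ± 0.11, adjusted p = 1.26e-17). Its relative CXCL2 read 18.2, 25.2 and 31.1 against 601, 632 and 646 (-4.29 ± 0.15), and CXCL1 6.2, 5.6 and 6.2 against 208, 216 and 224 (-4.0 ± 0.17). ICAM1, which leukocytes bind, differed by -3.15 ± 0.086 and the inflammatory cytokine IL6 by -2.44 ± 0.12. TNF itself stood at 1 ± 1.04 in PC9 and 1.27 ± 1.42 in HCC827, below the background of the table, and TNFAIP2 was the 1 gene at least 2-fold higher in PC9 (1.23). IL6, TNF and TNFAIP2 were named after their values were seen.

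NRF2 target and glutathione genes were the reverse: 20 of 24 were higher in PC9 (36.8% of all genes), 9 of them at least 2-fold (10.5%), 1 was higher in HCC827 and 3 did not pass (median 0.88). The largest differences were of aldo-keto reductases, which reduce aldehydes and ketones. AKR1C2 read 3764, 3323 and 3383 in PC9 and 25.3, 30.1 and 26.5 in HCC827 (6.63 ± 0.11, adjusted p = 8.36e-18), and AKR1C1 3309, 2883 and 3081 against 33, 21.9 and 30.1 (6.43 ± 0.15). AKR1B10 read 3963, 3816 and 3911 against 245, 228 and 216 (4.04 ± 0.072). In HCC827 AKR1C1 and AKR1C2 read close to the background of the table and AKR1B10 above it. AKR1C1, AKR1C2 and AKR1C3 (3.95 ± 0.066) are near-identical in sequence, so their probe sets may share transcripts and the 3 values are not independent. Members with other sequences also differed: the glutathione peroxidase GPX2 (1617 ± 104 against 115 ± 8.43, 3.72 ± 0.083), the cystine transporter SLC7A11 (1587 ± 60.7 against 317 ± 13, 2.29 ± 0.059) and PGD of the pentose phosphate pathway (1.75). The quinone reductase NQO1, the usual marker of the programme, read 3428, 3116 and 3237 in PC9 and 1769, 1815 and 1790.3 in HCC827 (0.86 ± 0.049, adjusted p = 9.34e-11). NFE2L2, which encodes NRF2, did not pass (809 ± 58.3 and 863 ± 17.6, -0.095 ± 0.065, adjusted p = 0.193), and KEAP1, the protein that marks NRF2 for degradation, was 0.81 higher in PC9. GSTA4, a glutathione transferase, was the member higher in HCC827 (-0.35). GPX2, SLC7A11, PGD, NFE2L2, KEAP1 and GSTA4 were named after their values were seen.

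Enzymes in the list of xenobiotic and aldehyde metabolism, some of which NRF2 is also known to induce, were split, 9 of 19 higher in PC9, 9 higher in HCC827 and 1 not passing. The aldehyde dehydrogenase ALDH3A1 read 642, 481 and 596 in PC9 and 6.1, 3 and 3.1 in HCC827 (5.59 ± 0.18, adjusted p = 2.8e-14). On the other side NNMT, which methylates nicotinamide, read 4, 6 and 7.9 against 776, 790.3 and 741 (-5.81 ± 0.099). The fatty acid hydroxylase CYP4F11 (3.46 ± 0.11) and the glucuronosyltransferase UGT1A6 (3.19 ± 0.14) were higher in PC9, and probes for UGT1A6 may read the other transcripts of its locus, which share exons. CYP1A1, a target of the aryl hydrocarbon receptor, was higher in HCC827 (-1.58) and CYP1B1, another such target, higher in PC9 (1.76), both named after their values were seen.

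EGFR itself was higher in HCC827. It read 1207, 1175 and 1203 in PC9 and 2329.9, 2282 and 2200.3 in HCC827, a log2 difference of -0.92 ± 0.055 (adjusted p = 1.54e-10), and all 7 of its other tested probe sets were called the same way. The arrays do not overlap, and the difference is just under 2-fold. Among its partners ERBB2 had 176, 148 and 133 against 245, 240.4 and 231 (-0.63 ± 0.099, adjusted p = 2.31e-05), but with the mean of all its probe sets the difference was -0.17 (adjusted p = 0.103). ERBB3 had 488, 487 and 515 against 597, 600.1 and 588 (-0.26 ± 0.066, adjusted p = 0.00213), and 1 of its 2 other probe sets was called the opposite way, so its direction is uncertain. ERBB4 did not pass and lay below background in both lines (5.27 ± 3.01 and 6.23 ± 1.53).

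The ligands parted more widely than the receptors. NRG1, the neuregulin that binds ERBB3 and ERBB4, read 6.7, 6.5 and 8 in PC9 and 574, 531 and 545 in HCC827 (-5.21 ± 0.14, adjusted p = 3.24e-15). Epiregulin, EREG, read 225, 297 and 288 against 2045, 2084 and 2234 (-2.95 ± 0.12), and betacellulin, BTC, 40.9, 53.5 and 44.5 against 237, 217 and 249 (-2.16 ± 0.11). All 3 were thus higher in HCC827, with NRG1 below background in PC9. HBEGF went the other way, with 387, 404 and 415 in PC9 and 151, 159.6 and 159 in HCC827 (1.32 ± 0.093), and TGFA did not pass (549 ± 66.9 and 576 ± 12.3, -0.077 ± 0.081, adjusted p = 0.398). Over the 13 ERBB receptors and ligands tested, 3 were higher in PC9, 7 higher in HCC827 and 3 did not pass (median -0.26).

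The other receptor tyrosine kinases were as mixed as all genes: 6 of 14 higher in PC9, 5 higher in HCC827 and 3 not passing. AXL, a receptor linked to resistance against EGFR inhibitors, read 1492, 1437 and 1424 in PC9 and 255, 219.9 and 207 in HCC827 (2.64 ± 0.068, adjusted p = 2.37e-15). MET, the hepatocyte growth factor receptor, read 1743, 1675 and 1615 against 2898, 3031 and 2934 (-0.81 ± 0.044, adjusted p = 4.77e-11). The lines thus lay on opposite sides for these 2 receptors, with both genes above background in both lines. EPHB6, an ephrin receptor without kinase activity, was higher in PC9 (3.50 ± 0.12), and MERTK, a relative of AXL, was higher in HCC827 (-2.12 ± 0.12).

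Genes that report ERK pathway output did not part the lines as a group, with 8 of 20 higher in PC9, 5 higher in HCC827 and 7 not passing (median 0.08). DUSP6, an ERK phosphatase that ERK itself induces, read 1046, 1547 and 1480.3 in PC9 and 1219.5, 1205 and 1330.0 in HCC827, with overlapping arrays (0.097 ± 0.12, adjusted p = 0.485). Without PC9 replicate 1, the lowest array, the difference was 0.27 (adjusted p = 0.0178). With the mean of its probe sets it was 0.34 (adjusted p = 0.00204), and both its other tested probe sets were called higher in PC9. CCND1, the cyclin of G1 entry, also overlapped (1580.3, 1339 and 1449.7 against 1462, 1505 and 1522, -0.042 ± 0.062, adjusted p = 0.553), but it was called with quantile normalization (-0.14) and with the mean of its probe sets (-0.59). Of the members higher in PC9, the feedback inhibitor SPRY4 read 433, 423 and 379.9 against 78.7, 70.4 and 78.2 (2.33 ± 0.11) and the nuclear phosphatase DUSP4 1169, 1219 and 1327 against 168, 159.9 and 151 (2.89 ± 0.083). The ephrin receptor EPHA4 (2.96 ± 0.097) was higher in PC9 and the early growth response factor EGR1 (-1.43 ± 0.15) was higher in HCC827.

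**Figure D3:**
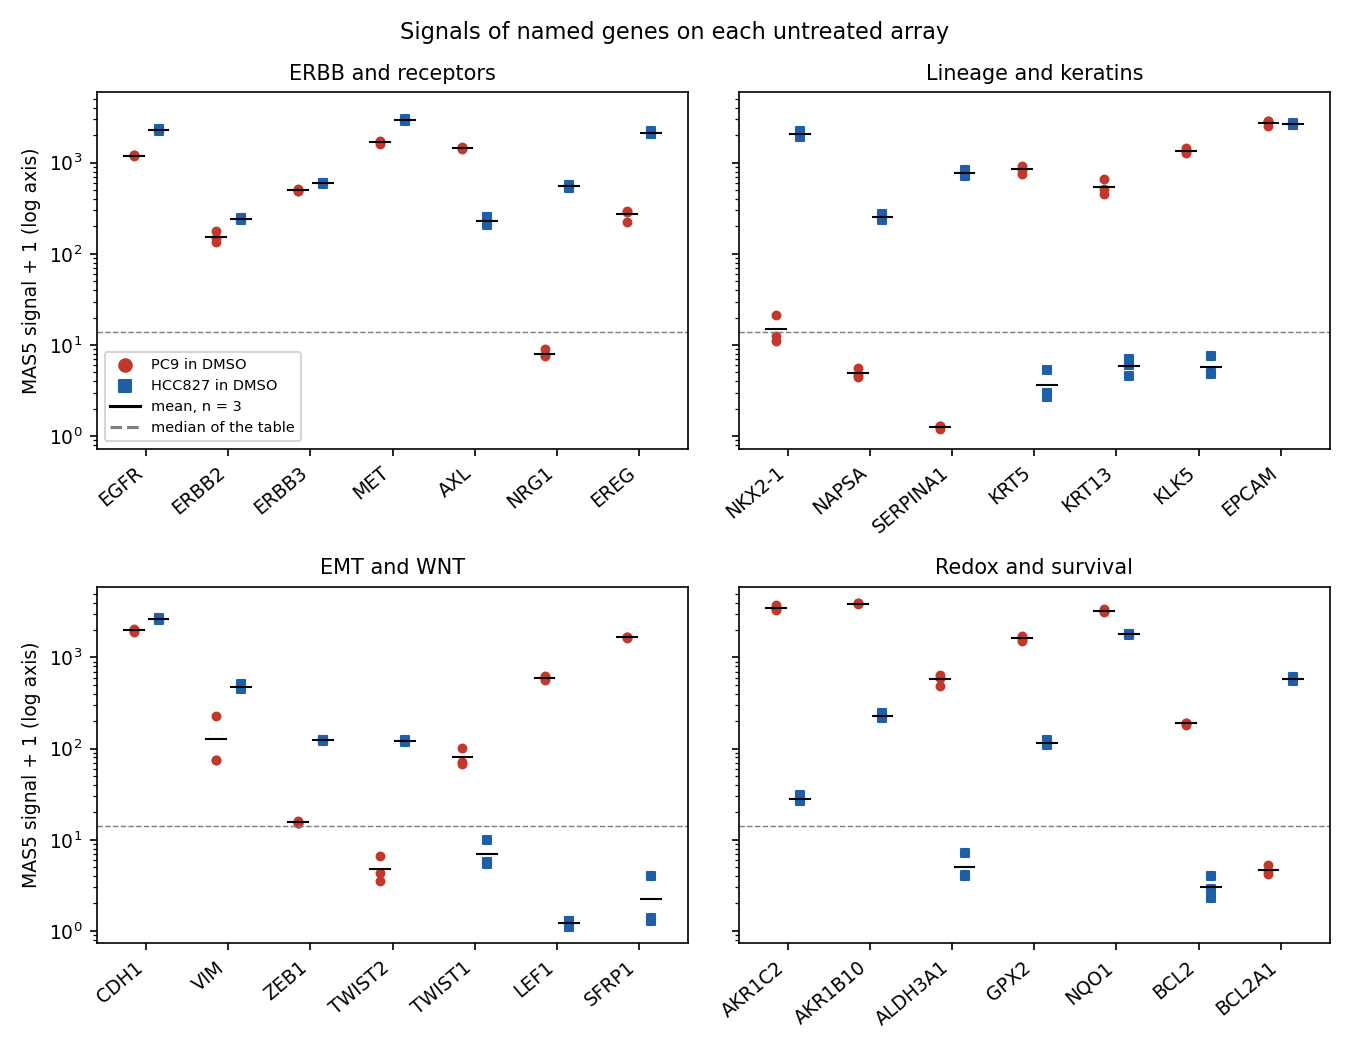
MAS5 signal plus 1 (log axis) of named genes on each untreated array, in 4 panels by role, with circles for PC9, squares for HCC827, a bar at each mean (n = 3) and a dashed line at the median of the table. EGFR and MET are higher in HCC827 by less than 2-fold, AXL is higher in PC9, and NKX2-1, NAPSA, SERPINA1, NRG1 and BCL2A1 are bright in HCC827 and near or below the dashed line in PC9.

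The genes beside EGFR on the chromosome were split. Of 11 genes in that list, EGFR included, 4 were higher in HCC827, 2 higher in PC9 and 5 did not pass, with a median of -0.06. In erlotinib 8 of the 11 were higher in HCC827 (median -0.45). LANCL2 was the 1 gene at least 2-fold higher in HCC827 (899, 751 and 841 against 1917, 1938 and 1937, -1.21 ± 0.061, adjusted p = 1.42e-11), whereas VOPP1 differed by -0.31 ± 0.061 and the mitochondrial protein CHCHD2 by 0.39 ± 0.053 in favour of PC9, the latter with 0.047 and no call under quantile normalization. CDKN2A, which encodes the CDK inhibitor p16 and is often deleted in lung cancer, was read in both lines, at 661, 605 and 656 in PC9 and 894, 889 and 894 in HCC827 (-0.47 ± 0.064, adjusted p = 3.94e-06). Of 8 genes in the list of CDKN2A and its neighbours, 7 were higher in HCC827, 5 of them at least 2-fold, and 1 was higher in PC9 (median -1.28). MTAP, of methionine salvage, read 306, 349.7 and 319 against 1244, 1206 and 1293 (-1.92 ± 0.092), and the transcription factor MLLT3 69.1, 74.5 and 79.9 against 568, 574 and 605 (-2.84 ± 0.092). The focal adhesion protein FOCAD (-1.45 ± 0.10) differed the same way.

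Neighbouring genes were then read along the whole gene order of RefSeq (GRCh38.p14, used for the order only) in windows of 15 consecutive tested genes. Of 12832 windows, 481 held at least 12 genes called higher in PC9 and 594 held at least 12 called higher in HCC827. The runs below are made of windows chosen for these calls, so their high counts and shifted medians follow from that choice. Over all genes 36.8% were called higher in PC9 and 39.4% higher in HCC827. Joined where they overlapped, the longest run in favour of HCC827 reached from RB1CC1 to SNX16, where 61 of 77 tested genes were higher in HCC827 and 5 higher in PC9, with a median of -0.87 in DMSO and -1.14 in erlotinib. The longest run in favour of PC9 reached from MYH9 to EP300, with 54 of 67 genes higher in PC9, 4 higher in HCC827 and medians of 0.71 and 0.59. Several genes described here lay in such runs. NKX2-1 lay in a run from G2E3 to PRPF39 with 35 of 42 genes higher in HCC827 and 0 higher in PC9 (median -0.79). ZEB1 and BAMBI lay in a run from OTUD1 to LINC00839 with 38 of 46 genes higher in HCC827 and 4 higher in PC9 (median -0.90). MLLT3 and FOCAD lay, with JAK2 and CD274, in a run from DMRT1 to FOCAD. There 35 of 44 genes were higher in HCC827 and 7 higher in PC9 (median -0.78). DNA copy number was not analysed here, and its part in these runs was not tested.

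Cyclins and CDKs were mostly higher in HCC827, while the mitosis and replication lists held few differences of 2-fold. Of 16 cyclins, CDKs and CDK inhibitors, 12 were higher in HCC827, 6 of them at least 2-fold, 1 was higher in PC9, also at least 2-fold, and 3 did not pass (median -0.73). CDK6, a kinase of G1 progression, read 688, 708 and 655 in PC9 and 1748, 1822 and 1728 in HCC827 (-1.36 ± 0.054, adjusted p = 7.65e-13). The cyclin CCNE2 (-1.37 ± 0.10) and the retinoblastoma relative RBL1 (-1.46 ± 0.13) were higher in HCC827 too, while CCNE1, the paralogue of CCNE2 and named after its value was seen, was the 1 member higher in PC9 (1.08). The inhibitors CDKN1C, CDKN2A and, named after their values were seen, CDKN1A and CDKN1B were all higher in HCC827 (-1.66, -0.47, -0.75 and -0.79). Of 24 mitosis genes 13 were higher in HCC827, 5 higher in PC9 and 6 did not pass, and no difference reached 2-fold (0 of 24, against 23.5% of all genes). MKI67, the proliferation marker, read 465, 402 and 359 against 563, 591 and 579.6 (-0.50 ± 0.091, adjusted p = 0.000102). The spindle kinase TTK differed by -0.73 ± 0.09 and PLK1, the polo kinase, by 0.60 ± 0.094 in the other direction. The 25 DNA replication genes were split 8 to 9 with 8 not passing, from the licensing factor CDT1 (-1.08 ± 0.15) to GINS4 of the replicative helicase (0.93 ± 0.12).

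BCL2 family genes, which set the threshold for apoptosis, were split, 6 of 16 higher in PC9, 9 higher in HCC827 and 1 not passing, but 2 protective members were each read in 1 line. BCL2 read 180.0, 192 and 191 in PC9 and 1.9, 1.3 and 3 in HCC827 (4.28 ± 0.12, adjusted p = 4.52e-15), although its 1 other tested probe set was not called. BCL2A1, an NF-kB target, read 3.2, 4.3 and 3.5 in PC9 and 589, 610.1 and 553 in HCC827 (-5.67 ± 0.091, adjusted p = 8.84e-18). BIM, the killer encoded by BCL2L11 and induced when EGFR is inhibited, read 237, 248 and 221 against 331, 263 and 261 (-0.26 ± 0.087, adjusted p = 0.0126). That call was lost under quantile normalization (-0.16), with the mean of its probe sets (-0.057), without PC9 replicate 3 (-0.21) and without HCC827 replicate 1 (-0.15). Among other death-promoting members BID was higher in PC9 (237, 245 and 257 against 45.2, 39.4 and 39.4, 2.37 ± 0.11) and BIK higher in HCC827 (80.9, 78.5 and 64.2 against 359, 341 and 340.4, -2.11 ± 0.15).

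Lineage genes gave the lines different profiles. NKX2-1, the transcription factor that marks the terminal respiratory unit and most lung adenocarcinomas, read 11.7, 20.5 and 10.2 in PC9 and 2209.7, 1923 and 2130.2 in HCC827 (-6.59 ± 0.14, adjusted p = 2.77e-16). NAPSA, an aspartic protease of the same lineage, read 3.5, 3.7 and 4.6 against 253, 234 and 269.9 (-4.45 ± 0.13). PC9 was near or below background for both, although the lung lineage list as a whole was split, with 3 of 12 genes higher in PC9, 5 higher in HCC827 and 4 not passing. SOX2, a factor of airway and stem cells, was at 8.57 ± 2.86 in PC9 and 66.1 ± 5.08 in HCC827 (-2.17 ± 0.13). SCGB1A1, the secretoglobin of club cells, was low in both (24.9 ± 6.31 and 2.93 ± 2.35, 1.59 ± 0.17).

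PC9 instead read keratins and proteases of stratified and basal epithelium. KRT5, the basal keratin, read 924, 759.7 and 841 in PC9 and 1.7, 4.3 and 2 in HCC827 (6.32 ± 0.15, adjusted p = 5.01e-16). KRT13, of mucosal epithelium, read 661, 455 and 518 against 3.6, 5 and 6 (5.41 ± 0.14), and KRT23 378, 313 and 343 against 3.6, 3.2 and 4.4 (4.91 ± 0.12). On these 3 genes HCC827 stayed below the background of the table on every array. Over 12 keratins 7 were higher in PC9, 4 higher in HCC827 and 1 did not pass, among them KRT20 higher in HCC827 at low signals (4.5 ± 0.265 against 40.7 ± 1.72). The median of the keratins was 0.34, but -0.13 with probe sets singly, so the direction of the list is uncertain. The kallikreins KLK5 and KLK7, proteases of the shedding epidermis, stood at 1347 ± 91.7 and 574 ± 70.1 in PC9 and at 4.73 ± 1.53 and 13.8 ± 0.666 in HCC827 (6.74 ± 0.12 and 4.73 ± 0.12). The calcium-binding S100A8 and S100A9, partners in calprotectin, differed by 4.88 ± 0.11 and 5.39 ± 0.11. The cornified envelope list was nevertheless split 6 to 6 with 1 of 13 not passing, as the small proline-rich proteins SPRR1A and SPRR1B and the desmosomal cadherin DSC2, named after their values were seen, were higher in HCC827 (-1.91, -3.07 and -1.70).

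Mucin and secretory genes were split, 8 of 18 to each line with 2 not passing. PIGR, the transporter of secretory antibodies, read 6.1, 5.1 and 6.4 in PC9 and 837, 813 and 812 in HCC827 (-5.90 ± 0.099, adjusted p = 1.26e-17). MUC1 read 66.8, 48.5 and 61.8 against 641, 594 and 628 (-3.24 ± 0.12) and the ovarian tumour antigen MUC16 18.9, 16.5 and 18 against 269.6, 281 and 266 (-3.44 ± 0.13). All 3 were thus higher in HCC827. WFDC2, a secreted protease inhibitor, was higher in PC9 (1069, 906 and 959 against 69.8, 45.2 and 76.9, 3.80 ± 0.14), as were, named after their values were seen, SLPI (2.34) and the adhesion molecule CEACAM6 (2.43).

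Both lines kept an epithelial transcript profile. CDH1, the epithelial cadherin, read 2030.0, 1914 and 2003 in PC9 and 2569, 2736 and 2656 in HCC827 (-0.42 ± 0.061, adjusted p = 1.03e-05), and EPCAM did not pass (2756 ± 191 and 2632 ± 76.7, 0.064 ± 0.054, adjusted p = 0.292). Of 23 epithelial junction genes and regulators 9 were higher in PC9, 12 higher in HCC827 and 2 did not pass. The tight junction protein CGN differed by -1.91 ± 0.06, CLDN3 by -1.76 ± 0.17 and, in the other direction, CLDN1 by 1.65 ± 0.078. Of 20 mesenchymal genes and factors of epithelial-mesenchymal transition (EMT) 4 were higher in PC9, 9 higher in HCC827 and 7 did not pass (median -0.39). The EMT factors parted by member. ZEB1 read 14.3, 15.1 and 14.3 in PC9 and 122, 123 and 122 in HCC827 (-2.53 ± 0.09, adjusted p = 1.57e-13), and TWIST2 3.3, 2.5 and 5.6 against 124, 119 and 120.4 (-3.46 ± 0.12). TWIST1 went the other way (70.2, 67.3 and 99.6 against 4.4, 8.9 and 4.7, 2.63 ± 0.18). The collagen cross-linker LOX was higher in PC9 (3.06 ± 0.11). VIM, the mesenchymal intermediate filament, read 74, 229 and 74.5 in PC9 and 473, 510.2 and 452 in HCC827 (-2.05 ± 0.27, adjusted p = 2.78e-06), and CDH2, the neural cadherin, 2.1, 34.5 and 3.2 against 103, 88.5 and 93.2 (-2.61 ± 0.35). For both the second PC9 array was far above the other PC9 arrays, and without it the differences were -2.56 and -3.27. The matrix protein SPARC, on which the same array read 69.6 against 1.1 and 1.3, did not pass (-1.18 ± 0.53, adjusted p = 0.0511).

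YAP and TAZ target genes were higher in HCC827 in 11 of 19 cases, 4 of them at least 2-fold (39.4% and 13% of all genes). In PC9 2 were higher, both at least 2-fold, and 6 did not pass (median -0.21). The genes that follow were named for their large differences and do not describe the list as a whole. The matricellular protein CCN2 read 5.8, 20.1 and 11.1 in PC9 and 165, 268 and 219 in HCC827 (-3.51 ± 0.24, adjusted p = 8.34e-10). The phosphatase PTPN14 (-2.49 ± 0.097) and the adaptor AJUBA (-2.27 ± 0.088) differed the same way, and AXL, which is also in this list, was higher in PC9. YAP1 and WWTR1 (TAZ), named after their values were seen, differed by only -0.14 and -0.17.

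WNT regulators and targets included several genes read in PC9 only. Of 17 tested, 8 were higher in PC9, 7 of them at least 2-fold, 3 were higher in HCC827, 2 of them at least 2-fold, and 6 did not pass (median 0.35). LEF1, a transcription factor of the pathway, read 598, 633 and 564 in PC9 and 0.1, 0.3 and 0.3 in HCC827 (6.20 ± 0.11, adjusted p = 1.98e-17). The ligand WNT5A read 284, 388 and 339.5 against 6.4, 9 and 8 (4.44 ± 0.11), and the receptor FZD7 693, 710.4 and 701 against 82.3, 88.7 and 89.9 (2.90 ± 0.07). AXIN2, the feedback inhibitor that serves as a standard target gene, stood at 72.3 ± 8.98 against 3 ± 0.557 (2.86 ± 0.14, named after its value was seen). SFRP1, the antagonist given among the largest differences, is in the same list. These genes were named for their large differences or after their values were seen, and do not describe the list as a whole. FZD7 was above background in HCC827 too.

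The TGF-beta and BMP genes were split, 8 of 21 higher in PC9, 12 higher in HCC827 and 1 not passing. NOG, which traps BMPs, was higher in PC9 and read 1364, 1710.3 and 1732 in PC9 and 58.8, 69.8 and 59.9 in HCC827 (4.50 ± 0.098, adjusted p = 2.57e-16), as was the activin chain INHBB, with 484, 443 and 409 against 12.5, 11 and 12.7 (4.50 ± 0.10). The ligand BMP2 was higher in HCC827 (6.9, 13.3 and 8.5 against 202, 184 and 209, -3.57 ± 0.12), as was ID2, a BMP target that blocks helix-loop-helix factors (4.5, 6.4 and 5.2 against 235, 207 and 269.9, -4.19 ± 0.13). ID1, ID3 and ID4, the other members of that family and named after their values were seen, were higher in HCC827 too (-1.41, -1.03 and -3.29).

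Germline, positional and neural genes also marked the lines. Of 30 cancer-testis antigens listed, 8 were tested, with 6 higher in PC9 and 2 higher in HCC827 (median 3.52), and 10 were under the filter. A gene at background in 1 line passes the filter only through the line where it is read. The size of these differences and the median therefore follow in part from the filter. Besides MAGEA4, MAGEA12 (1067 ± 121 against 1.53 ± 1.88, 6.83 ± 0.13), MAGEA6 (3427 ± 85.8 against 23.3 ± 1.95, 6.78 ± 0.072) and MAGEC1 (4.93 ± 0.14) were read in PC9. MAGEA genes are close paralogues and may share probes. PRAME, named after its value was seen, was higher in HCC827 at a low signal (1.87 ± 1.46 against 45.1 ± 4.38). The list does not hold every such antigen. CT83, outside the list and also named after its value was seen, was bright in HCC827 only. It read 2.1, 4.1 and 3.7 in PC9 and 466, 498 and 465 in HCC827 (-5.425). Of 15 HOX genes, which keep positional identity, 5 were higher in PC9, 8 higher in HCC827 and 2 did not pass, with the largest difference that of HOXC10, higher in HCC827 (21.8, 15.8 and 16.4 against 281, 256 and 266, -3.41 ± 0.10) and its cluster neighbour HOXC13 the reverse (2.42 ± 0.13). Among 10 neural genes 6 were higher in PC9 and 3 higher in HCC827. The neural adhesion molecule NCAM1 (99.3 ± 15.8 against 3.87 ± 0.814, 3.17 ± 0.12) and the neurofilament NEFH (2.91 ± 0.10) joined UCHL1 in PC9, and the neuronal enolase ENO2 was higher in HCC827 (70.3, 57.4 and 61 against 632, 708 and 622, -3.22 ± 0.15).

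Protease and inhibitor genes were split 9 to 10 of 21, with 2 not passing, but held some of the widest single differences. SERPINA1, the antitrypsin of liver and airway, read 0.3, 0.2 and 0.3 in PC9 and 771, 828 and 716 in HCC827 (-6.56 ± 0.09, adjusted p = 2.03e-18). The matrix protease MMP7 differed by -2.76 ± 0.20 and the plasminogen activator PLAT by 2.48 ± 0.14. Of 17 integrins and laminins 5 were higher in PC9, 9 higher in HCC827 and 3 did not pass. The laminin chain LAMA4 read 912, 831 and 906 in PC9 and 5.1, 3.9 and 7.5 in HCC827 (6.05 ± 0.10), while the integrin ITGAV differed by -1.30 ± 0.059 and ITGB5, one of its partners, by 1.16 ± 0.11.

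Housekeeping metabolism differed by small amounts. Of 16 cholesterol synthesis genes 10 were higher in PC9, 3 higher in HCC827 and 3 did not pass (median 0.33), led by the epoxidase SQLE (1337, 1215 and 1189 against 609, 529 and 567, 1.12 ± 0.074) and the isomerase IDI1 (1.00 ± 0.072). Of 21 glycolysis genes 10 were higher in PC9, 5 higher in HCC827 and 6 did not pass, with a median of 0.14 that was -0.037 under quantile normalization. Its wide differences were of tissue-restricted members: the glucose transporter SLC2A3 read 461, 541 and 564 in PC9 and 5.1, 10.1 and 10 in HCC827 (5.03 ± 0.13), while ENO2 was higher in HCC827 as given above. Of 12 ribosome biogenesis genes 2 were higher in PC9, 5 higher in HCC827 and 5 did not pass (median -0.02), with RRS1 (-1.13 ± 0.076), which lies in the run from RB1CC1 to SNX16, and the nucleolar methyltransferase FBL (0.61 ± 0.061) at the ends.

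**Figure D4:**
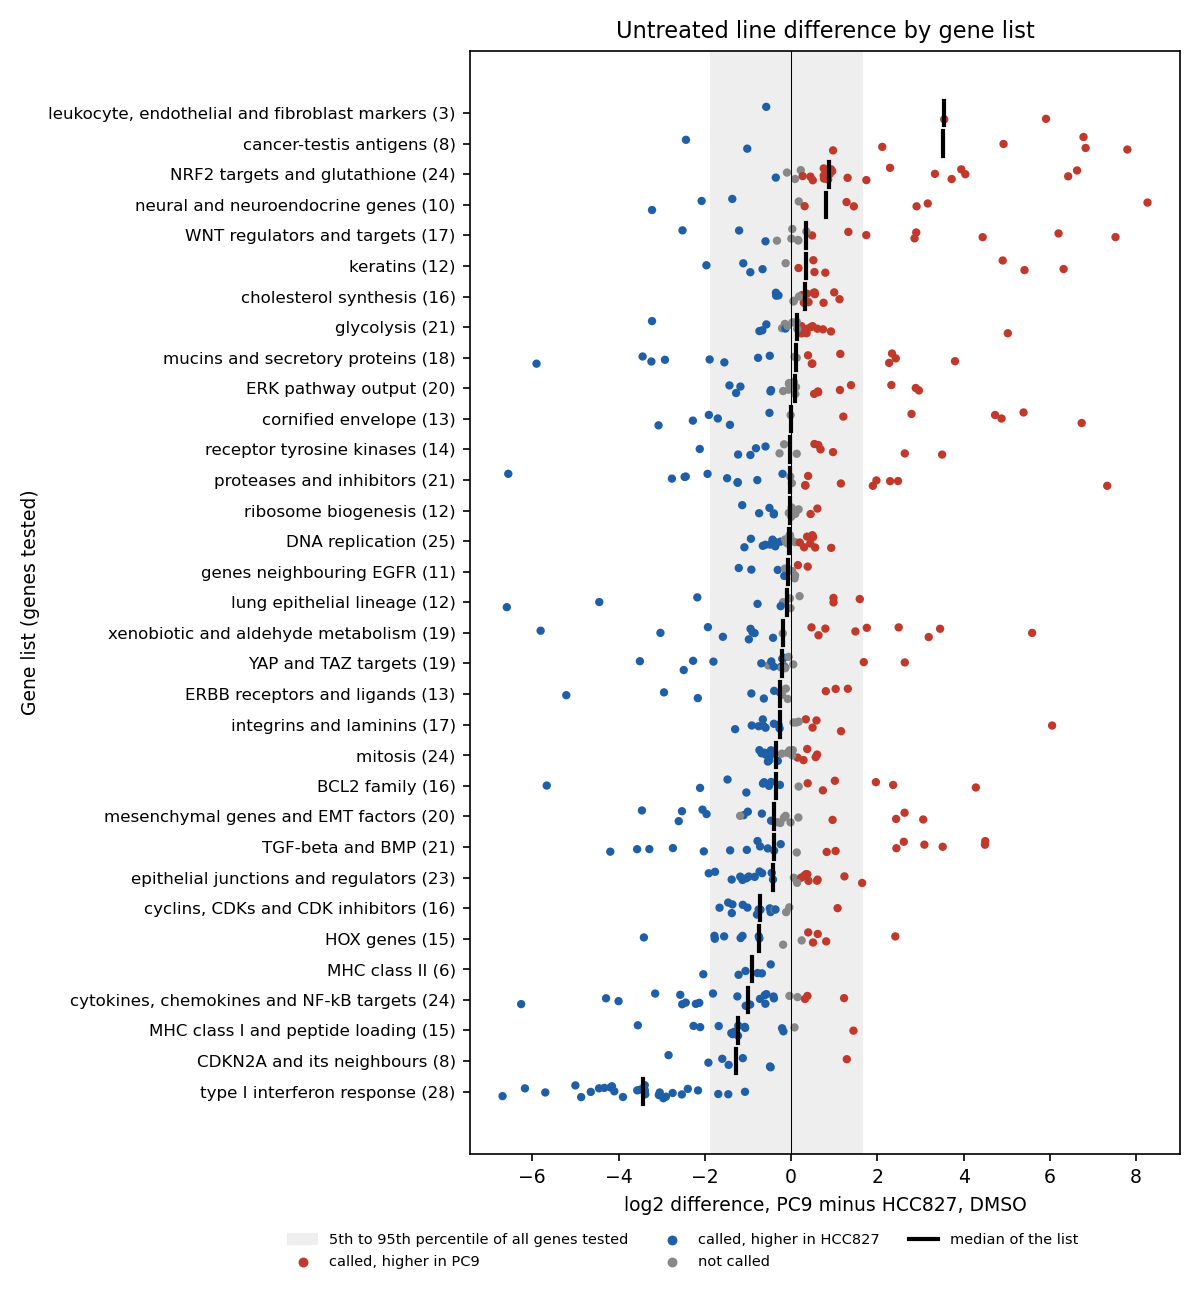
Log2 difference (PC9 minus HCC827, untreated) of every tested gene in each of the 33 gene lists, with red points called higher in PC9, blue points called higher in HCC827, grey points not called and a bar at the median of each list. The grey band spans the percentiles 5 to 95 of all genes tested (-1.86 to 1.65), and the 28 interferon response genes lie entirely left of 0, most of them beyond the band.

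Some genes were read in 1 line only, taken as a signal of at least 100 on every array of that line and of at most 13 on every array of the other. There were 131 such genes in PC9 and 133 in HCC827. The former included UCHL1, KRT5, LEF1, BCL2, PECAM1 and LAMA4, and the latter NAPSA, SERPINA1, NRG1, BCL2A1, CXCL5 and PIGR. In the erlotinib arrays 75 and 80 of them met the same rule. Of the 716 genes in the 33 lists 533 were tested, 107 were under the filter and 76 were not analysed here. The naming rule selected 156 genes, of which 154 were called. Apart from the fixed genes it takes only called genes, so that count follows from the rule and is not a result. Of the 90 named genes with other tested probe sets, only ERBB3 had one called the opposite way.

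The line difference was read again in the erlotinib arrays, which share no array with the untreated comparison but come from the same lines. There 10076 genes were called (76.4%), 3147 of them at 2-fold or more (23.9%). Of the 3102 genes called at 2-fold or more untreated, 2855 (92.0%) were called the same way in erlotinib, 74 the opposite way and 173 were not called. The differences correlated over the 13185 genes with r = 0.847, a description in which genes are not independent replicates. UCHL1 differed by 8.26 untreated and 8.42 in erlotinib, NRG1 by -5.21 and -5.21, BICC1 by -6.96 and -7.54, and AKR1C2 by 6.63 and 6.96. Other named genes changed sides. MUC1 was higher in HCC827 untreated (-3.24) and higher in PC9 in erlotinib (1.11), while HBEGF (1.32 and -2.53), NOG (4.50 and -1.11) and SPRY4 (2.33 and -0.48) went from PC9 to HCC827, all with calls on both sides. In erlotinib SPRY4 read 13.1 ± 1.65 in PC9 and 21.4 ± 2.55 in HCC827, near background, so its side there is uncertain. ICAM1 (-3.15 and -0.043), KRT20 (-1.96 and -0.066) and BAMBI (-2.74 and -0.10) differed between the untreated lines, with differences close to 0 in erlotinib. There ICAM1 was bright in both lines (894 ± 96.3 in PC9 and 918 ± 45.6 in HCC827). KRT20 was below background in both (4.2 ± 1.91 and 4.7 ± 0.954). BAMBI, a decoy receptor for TGF-beta, was named after its values were seen. A direct test of whether the line difference depended on erlotinib called 45.2% of all genes and 10 of the 15 fixed genes tested.

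**Figure D5:**
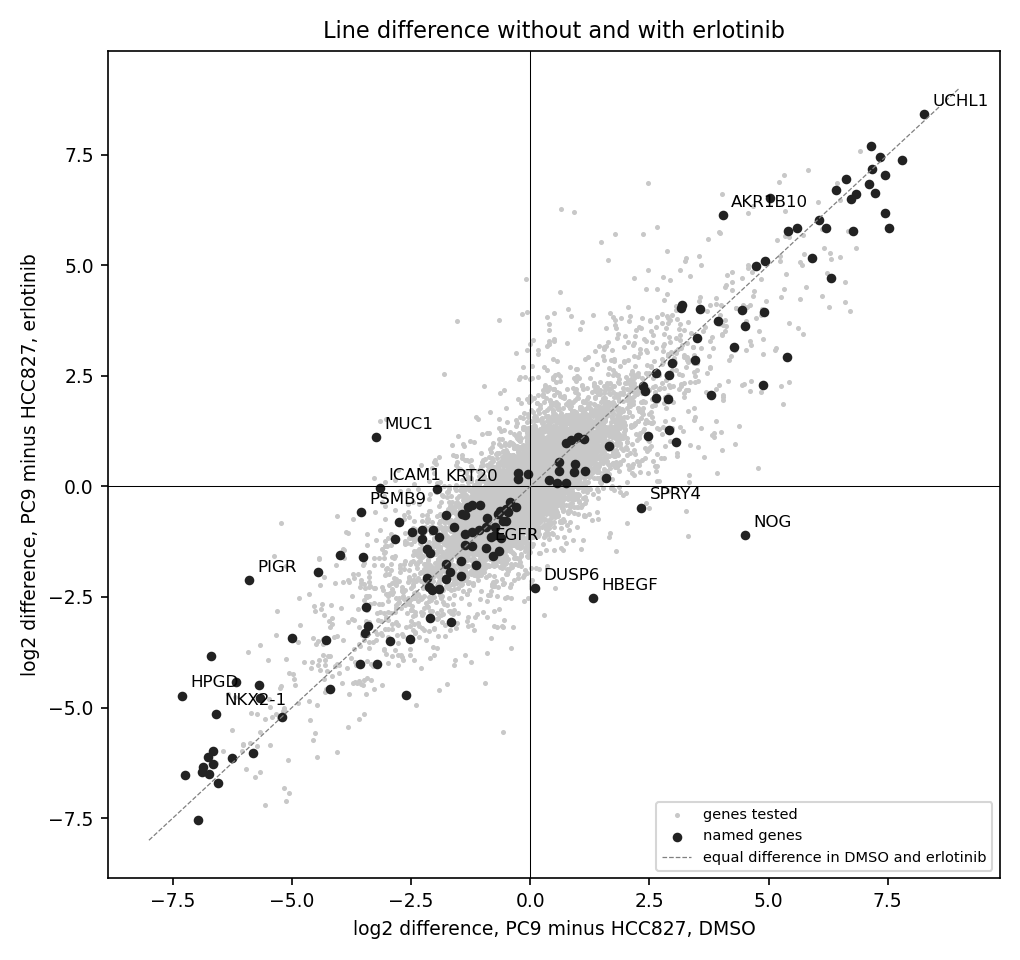
Log2 line difference (PC9 minus HCC827) in erlotinib (vertical axis) against the same difference untreated (horizontal axis) for all genes tested in grey and the named genes in black, with a dashed line of equal differences. Most named genes lie near the dashed line, UCHL1 at the upper right, while MUC1 lies upper left, and HBEGF, NOG and SPRY4 lie lower right, with the sign of their difference turned.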

How the data were processed

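The members and gene lists of this comparison were chosen with earlier results of these data known. Per the labels, total RNA extracted with RNeasy Plus was amplified with the NuGEN Ovation system and labelled with biotin. The authors deposited linear signal intensities, 1 for each probe set on each array, from MAS5 (version not given) per the submitters' processing notes, and the values show that all arrays were scaled to a 2% trimmed mean of 150. The table has 54675 probe sets: 62 controls, 41091 paired with 1 symbol, 1801 with several and 11721 with none here. Of the 41091, 41037 matched the RefSeq gene table by gene ID.

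Each gene was represented by its brightest probe set (mean log2 signal), and genes were kept if at least 1 of the 4 groups had a mean of 13 or more. All 12 arrays were fitted in limma 3.58.1 (R 4.3.3) on log2(signal + 8), with 1 mean per group and an intensity trend. The contrasts were PC9 minus HCC827 in DMSO, the same in erlotinib, and their difference. The procedure was tested on simulated data. The number of arrays limits the precision, and untreated arrays had median signals of 11.1 to 12.6 and actin 3'/5' ratios of 2.09 to 2.35. The main fit did not pair samples by replicate number. Same-numbered arrays of the lines had deviation correlations of 0.021, -0.094 and 0.026, and other pairs had -0.125 to 0.113. With 3 arrays per line these values cannot tell if same-numbered samples were grown or processed together.

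Named genes were the 10 largest called differences each way with non-overlapping arrays and a mean of at least 100 in the higher line, up to 4 called members per list and 18 fixed genes, of which 15 were tested. Most other names are marked as chosen after their values were seen. ERBB4, TGFA and SPARC also lie outside the naming rule, and the cell type markers were a separate list. Gene lists are described by counts and medians, without a set test. Alternatives were 1 or 32 in place of 8, quantile normalization, median centring, no filter, other filters, the mean of all probe sets, probe sets singly, no trend, 6 arrays only, the replicate block, a test against 1.5-fold and leaving out each array. Some genes are not reported here.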

Additional observations from a re-analysis of the deposited data

Results flagged for a closer look

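For 10 of the fixed genes the line difference (PC9 minus HCC827, log2) differed between untreated and erlotinib-treated cells by the direct test of that difference in limma. The values below are the untreated difference minus the erlotinib difference. The widest was that of DUSP6, 2.39 (adjusted p = 1.96e-08), which overlapped between the untreated lines (0.097) and was lower in PC9 in erlotinib (-2.29). NKX2-1 had -1.45 (adjusted p = 2.84e-05), from -6.59 untreated to -5.14, and ZEB1 had 0.91 (adjusted p = 2.66e-05), from -2.53 to -3.44.

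Among the receptors, AXL had 0.63 (adjusted p = 6.76e-05), EGFR 0.48 (adjusted p = 0.000117), MET 0.34 (adjusted p = 0.000409) and ERBB3 -0.42 (adjusted p = 0.00192). Their differences in erlotinib were 2.01, -1.40, -1.15 and 0.16. BCL2L11 had -0.56 (adjusted p = 0.00147), CCND1 -0.32 (adjusted p = 0.00696) and NQO1 -0.18 (adjusted p = 0.0456). Actin 3'/5' ratios were 2.45 to 3.64 on the HCC827 erlotinib arrays and 2.05 to 2.53 on those of PC9, and their part in these values was not tested.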

How the results depend on the processing

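The count of called genes (10042) was 9531 to 10839 under all alternatives but 3. With probe sets tested singly 18914 were called (9107 higher in PC9, 9807 higher in HCC827; 2585 and 3197 at 2-fold or more), as more features were tested. Against a 1.5-fold difference 3879 passed (1760 and 2119), and the filter at the 70th percentile, which tests fewer genes, left 7994. With 32 in place of 8 the genes at 2-fold or more numbered 934 and 1119. Leaving out each array gave 9540 to 9856 called genes, 4582 to 4762 higher in PC9, 4953 to 5094 higher in HCC827, and 1377 to 1446 and 1669 to 1752 at 2-fold or more. The replicate block gave 9966 called genes (4809 and 5157), and it is not known if the replicate numbers pair the samples. Higher genes in PC9 made up 48.3% of the called genes, and 50.5% with median centring. Genes read in 1 line only numbered 211 (PC9) and 231 (HCC827) from a signal of 50, 77 and 86 from 200, and 132 to 141 and 135 to 159 without single arrays. In place of 481 and 594 windows of neighbouring genes higher in PC9 and in HCC827, 10-gene windows gave 804 and 993, and 25-gene windows 196 and 311.

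The medians of 27 of 33 lists kept their sign throughout. Those of the others turned: BCL2 family 0.027 with the mean of all probe sets, epithelial junctions 0.064 with the filter at the 70th percentile, keratins -0.13 and integrins 0.11 with probe sets singly, glycolysis -0.037 with quantile normalization, and xenobiotic metabolism 0.26 with no filter, 0.56 with the filter at the 70th percentile and 0.065 with probe sets singly. The direction of these lists is therefore uncertain, whatever the counts and medians given above. Of 156 named genes 132 kept their direction and call under every alternative, and 150 under every one but the 1.5-fold test. The other 6 are CHCHD2, LUM, ERBB2, CCND1, DUSP6 and BCL2L11. For LUM, near background in both lines, the call was lost with 32 in place of 8 (-0.19) and with the mean of its probe sets (-0.17), and DUSP6 was called with the mean of its probe sets (0.34). The causes of these shifts were not tested. With no detection calls, signals at or below 13 have no reliable order, and a difference against them depends on the constant added.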
